A study of Saccharomyces cerevisiae with 4 samples.

Results

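The 10 genes described here encode enzymes of sulfate assimilation, methionine and cysteine synthesis, and the synthesis of S-adenosylmethionine (SAM) in Saccharomyces cerevisiae. They were found by their reading frame identifiers, and all 10 of 10 were present among the 6692 reading frames of the count table. The libraries came from nuclear messenger ribonucleoprotein particles (mRNPs) and from the lysates they were purified from. The 2 eluates are biotin eluates of a tandem purification on Sub2 and then on Hpr1, a subunit of the THO complex. The 2 lysates are total RNA taken before the first affinity step. All 4 libraries are from 1 genotype in the BY4741 background, a haploid laboratory strain, in which Sub2 carries a FLAG-3C-protein A tag (sub2-FLAG-3C-ProtA::kanMX4) and Hpr1 a Twin-Strep tag (hpr1-TS::hphNT1). The cells were grown in YPD, a rich medium.

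Budding yeast takes up sulfate, activates it with ATP and reduces it to sulfide, which is joined to a carbon skeleton made from homoserine to give homocysteine. Homocysteine is methylated to methionine, from which SAM, the main methyl donor of the cell, is made, or it enters transsulfuration to cysteine. Transcription of the pathway depends on the activator Met4 with its DNA-binding partners Cbf1, Met31 and Met32, and it is known to be low when methionine is plentiful, as in rich medium. BY4741 lacks MET17, which encodes the enzyme that joins sulfide to the carbon skeleton. MET17 had 0 counts in each of the 4 libraries, which allows at most 0.134 and 0.100 CPM (counts scaled to the size of the library) in eluates 1 and 2 and 0.203 and 0.262 CPM in lysates 1 and 2, with a limit of 3 counts per library. Such limits and the intervals on shares cover counting error only.

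Deposited counts summed to between 22454265 and 29903666 per eluate and between 11448755 and 14793216 per lysate. The mitochondrial reading frames took 0.00717% and 0.00685% of the eluate counts and 1.31% and 1.33% of the lysate counts. Across the genes tested, both eluates had a Pearson's r of 0.998 in log2(CPM + 1), and both lysates one of 0.996. The libraries of a fraction nonetheless differed by more than sampling noise, and each was counted as 1 sample. Values below are CPM over library sizes adjusted by the trimmed mean of M-values (TMM). Each value is a share of its own library, so that the amount of an mRNA per cell cannot be read from them.

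The pathway did not move one way. CYS3, MET5, MET10 and MET2 were higher in the eluate, by 8.72-fold, 3.43-fold, 3.22-fold and 2.18-fold. SAM1, SAM2, CYS4, MET6 and MET3 were lower in the eluate, by 5.30-fold, 4.05-fold, 3.80-fold, 1.71-fold and 1.52-fold, and MET16 did not pass the test. This makes 4 of 10 genes higher and 5 lower by edgeR's quasi-likelihood test with Benjamini-Hochberg adjustment and a threshold of 0.05. Of all 6191 genes tested, 44.2% were higher and 44.8% lower (89.0% in either direction), so that neither count stands far from the background. The median log2 fold change was -0.48 over the 10 genes and -0.01 over all genes tested. The spread among the 10 genes was wide, with an interquartile range of 3.18 on the log2 scale beside 2.80 over all genes tested. In CPM, both eluates lay above both lysates for 4 of the genes and below them for 6. The same was so for 46.9% and 47.5% of all genes tested.

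**Figure D1:**
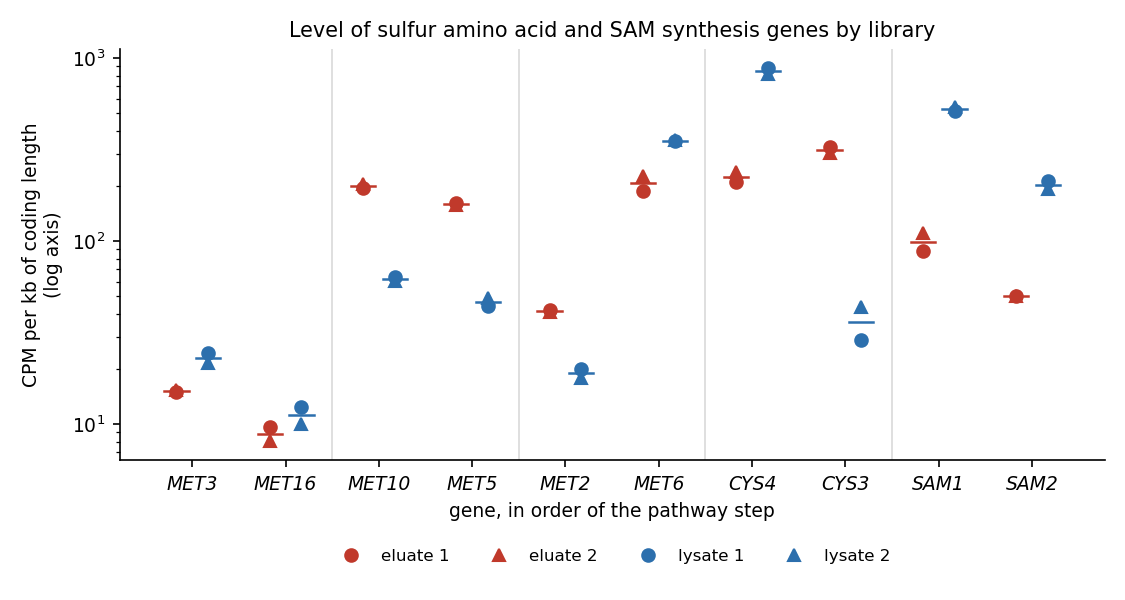
Level of each gene in each library, in CPM per kb of coding length on a log axis, with eluates in red, lysates in blue and a line at the mean of the 2 libraries. CYS3 averaged 313 CPM per kb in the eluates and 36.1 in the lysates, while CYS4, SAM1 and SAM2 lay lower in both eluates than in both lysates.

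The first steps of the pathway activate and reduce sulfate. MET3 (YJR010W), which encodes ATP sulfurylase, lies on chromosome X from 456239 to 457774 (sacCer3). It had 23.0 and 23.6 CPM in eluates 1 and 2, against 37.5 and 33.1 CPM in lysates 1 and 2. Both eluates were lower than both lysates, and MET3 fell by 0.60 in log2 terms (standard error 0.11, edgeR adjusted p = 1.27e-04). MET16 (YPR167C), on chromosome XVI from 876847 to 877632, encodes the reductase that turns activated sulfate into sulfite. It had 7.57 and 6.32 CPM in the eluates, against 9.68 and 7.89 CPM in the lysates. The groups did not overlap, but the gap between eluate 1 and lysate 2 was smaller than that between the replicates of either fraction. The log2 fold change of -0.35 did not pass (standard error 0.17, adjusted p = 0.0671 from edgeR). MET16 had the fewest reads of the 10 genes, with 164 and 173 counts in eluates 1 and 2 and with 151 and 97 counts in lysates 1 and 2. Its call depended on the scaling and on lysate 2, since it passed at -0.53 with library totals alone and at -0.49 without lysate 2 (adjusted p = 0.0213 and 0.0281 from edgeR).

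Sulfite reductase, which makes sulfide, is built from an alpha subunit encoded by MET10 (YFR030W) and a beta subunit encoded by MET5 (YJR137C). These are the longest of the 10 genes, with coding lengths of 3108 and 4329 bases, on chromosome VI from 213312 to 216419 and on chromosome X from 678957 to 683285. MET10 had 604 and 637 CPM in the eluates, against 197 and 188 CPM in the lysates. MET5 had 702 and 681 CPM in the eluates, against 191 and 212 CPM in the lysates. Both genes were thus about as far apart between the fractions, with log2 fold changes of 1.69 for MET10 (standard error 0.10, edgeR adjusted p = 3.48e-10) and 1.78 for MET5 (standard error 0.11, adjusted p = 2.88e-10). Within a library, the ratio of MET5 to MET10 in counts per kb was 0.834 and 0.768 in the eluates, whereas it was 0.695 and 0.809 in the lysates. The ranges overlapped, and the log2 ratio differed by 0.09 between the fractions (standard error 0.12, exact permutation test, two-sided p = 0.67). The size and sign of a small difference cannot be read from 2 libraries of each fraction.

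Methionine is made in the branch that holds MET2 and MET6. MET2 (YNL277W) encodes homoserine O-acetyltransferase, which prepares the carbon skeleton, and lies on chromosome XIV from 117349 to 118809. It had 61.0 and 59.8 CPM in the eluates, against 29.2 and 26.0 CPM in the lysates, and rose by 1.13 on the log2 scale (standard error 0.10, adjusted p = 5.85e-08 from edgeR). MET2 overlaps the reading frame YNL276C on the opposite strand over 379 bases. In eluates 1 and 2 YNL276C had 15 and 16 counts beside 1321 and 1637 of MET2, and in lysates 1 and 2 it had 8 and 14 counts beside 455 and 320 of MET2. The other 9 genes overlap no reading frame on either strand. MET6 (YER091C) encodes the cobalamin-independent methionine synthase, which methylates homocysteine, and lies on chromosome V from 339864 to 342167. It had 431 and 522 CPM in the eluates, against 809 and 818 CPM in the lysates. MET6 was thus lower in both eluates and fell by 0.77 in log2 terms (standard error 0.12, edgeR adjusted p = 1.39e-05). The 2 genes of this branch moved in opposite directions. MET6 exceeded MET2 by 4.48 and 5.54 times per kb within the eluates, against 17.6 and 19.9 times within the lysates.

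Among the 5 pairs of genes compared within libraries, the widest contrast lay between both genes of transsulfuration. CYS4 (YGR155W) encodes cystathionine beta-synthase, which joins homocysteine to serine, and CYS3 (YAL012W) encodes cystathionine gamma-lyase, which splits the product to release cysteine. CYS3, on chromosome I from 130799 to 131983, had 385 and 356 CPM in the eluates, against 33.9 and 51.6 CPM in the lysates. In relative terms the lysates differed from each other more than the eluates did, but the lower eluate was still far above the higher lysate. CYS3 rose by 3.12 on the log2 scale (standard error 0.15, adjusted p = 3.21e-11 from edgeR), and its value ranged from 2.84 to 3.45 over the other settings and with 1 library left out. CYS4, on chromosome VII from 798543 to 800066, had 319 and 362 CPM in the eluates, against 1346 and 1244 CPM in the lysates, and fell by 1.93 (standard error 0.12, adjusted p = 3.70e-10 from edgeR). Per kb, CYS3 exceeded CYS4 in the eluates, with ratios of 1.55 and 1.27, whereas the ratio was 0.0324 and 0.0534 in the lysates. The ratio was 33.7 times higher in the eluates (log2 difference 5.08, standard error 0.39, two-sided exact permutation test with p = 0.33, which is as low as these samples allow).

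**Figure D2:**
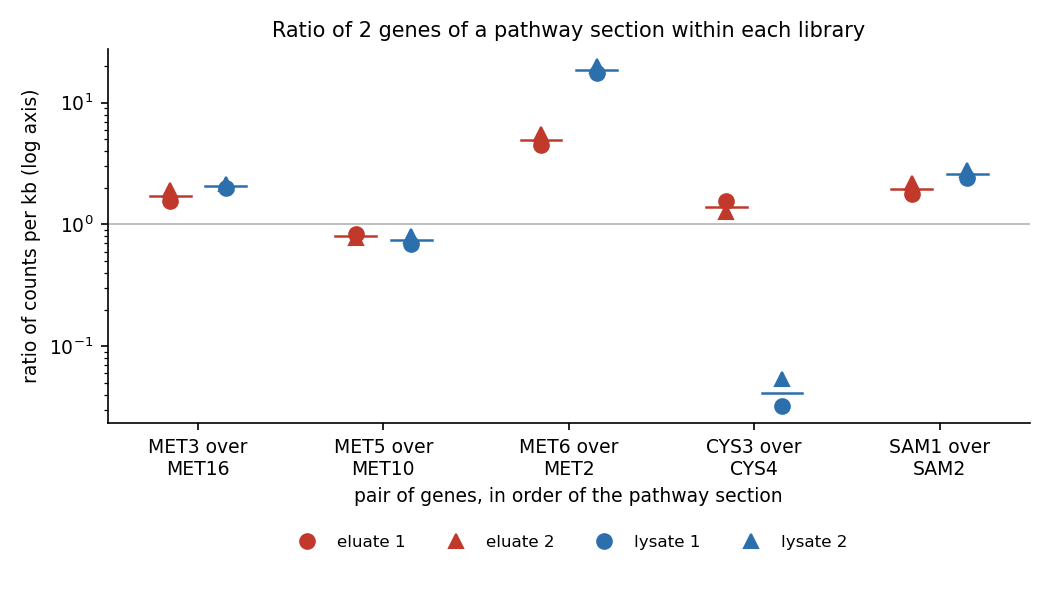
Ratio of the counts per kb of 2 genes within each library, on a log axis, with eluates in red, lysates in blue and a line at the geometric mean of the 2 libraries. CYS3 over CYS4 and MET6 over MET2 differ between the fractions by far more than between replicates, while the ranges of MET5 over MET10 overlap.

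SAM synthetase is encoded by SAM1 and SAM2, a pair of closely related paralogues. The sources used here do not give how reads that fit both genes were counted, and the split between them is uncertain. SAM1 (YLR180W), on chromosome XII from 515262 to 516410, had 101 and 127 CPM in the eluates, against 592 and 618 CPM in the lysates. SAM2 (YDR502C), on chromosome IV from 1453310 to 1454464, had 57.4 and 58.1 CPM in the eluates, against 246 and 222 CPM in the lysates. SAM1 fell by 2.41 and SAM2 fell by 2.02 on the log2 scale (standard errors 0.12 and 0.10, adjusted p = 3.64e-11 and 1.92e-11 from edgeR), and both were lower in each eluate than in each lysate. Within a library, SAM1 exceeded SAM2 per kb by 1.77 and 2.20 times in the eluates, against 2.41 and 2.81 times in the lysates. The ranges did not overlap, but the log2 difference of -0.40 compares with SDs of 0.22 between the eluates and 0.15 between the lysates (standard error 0.19, two-sided exact permutation test with p = 0.33, as low as it can be). The fifth pair, MET3 over MET16, had ratios per kb of 1.56 and 1.91 in the eluates, whereas they were 1.98 and 2.15 in the lysates. Over the 5 pairs the Benjamini-Hochberg adjusted p was 0.67 for MET5 over MET10 and 0.417 for each of the others. Such a test of 2 against 2 libraries cannot pass 0.05.

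The order of the levels differed between the fractions. Per kb of coding length, CYS3 had the highest level of the 10 in the eluates, at 313 ± 17.0 CPM per kb (SD, n = 2). CYS4, MET6 and MET10 followed at 224 ± 20.1, 207 ± 28.0 and 199.7 ± 7.34 CPM per kb. Among these, CYS4 and MET6 overlapped, as did MET6 and MET10. MET5 was next at 159.8 ± 3.39 CPM per kb, then SAM1 at 99.3 ± 15.9, SAM2 at 50.0 ± 0.433, MET2 at 41.3 ± 0.607, MET3 at 15.2 ± 0.246 and MET16 at 8.84 ± 1.13. In the lysates CYS4 led at 849.7 ± 47.4 CPM per kb, followed by SAM1 at 527 ± 16.4, MET6 at 353 ± 2.58 and SAM2 at 203 ± 15.2 (SD, n = 2). MET10 and MET5 had 62.0 ± 2.01 and 46.5 ± 3.50 CPM per kb in the lysates, and CYS3, MET3, MET2 and MET16 had 36.1 ± 10.6, 23.0 ± 2.0, 18.9 ± 1.52 and 11.2 ± 1.61. No neighbours in this order overlapped in the lysates. MET16 was lowest in both fractions. CYS3 took 25.3% and 22.2% of the summed level of the 10 genes per kb in eluates 1 and 2, against 1.33% and 2.07% in lysates 1 and 2. CYS4 took 16.3% and 17.6% in the eluates, against 41.0% and 38.8% of the sum in the lysates. SAM1 took 6.87% and 8.17% in the eluates, against 23.9% and 25.6% of the sum in the lysates. Over the 10 genes, Spearman's rho between the mean levels of both fractions was 0.600, a description across genes that share the libraries.

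The summed share of the reads was lower in the eluates, and this difference nearly vanished without CYS4. The counts of the 10 genes made up 0.260% of both eluates (95% exact binomial intervals 0.257% to 0.262% and 0.258% to 0.261%). In the lysates the share was 0.368% (0.365% to 0.371%) and 0.367% (0.364% to 0.371%). Both eluates were thus close to each other and below both lysates (two-sided exact permutation test with p = 0.33, as low as it can be). Without CYS4, the other 9 genes took 0.229% and 0.226% of the eluate counts, against 0.226% and 0.234% of the lysate counts, and the groups overlapped. The difference in the mean share, eluates minus lysates, was -0.108 percentage points over the 10 genes, -0.00237 without CYS4, -0.0544 without SAM1 and -0.0663 without MET6. It was larger in size without MET5, MET10 or CYS3, at -0.152, -0.146 and -0.138 percentage points. The difference is thus a net of genes that went both ways. Leaving out genes was chosen after the data were seen.

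Log2 fold changes in these libraries rise with coding length, so each gene was also set beside genes of like length. The nuclear genes tested were split into 5 classes of about equal size. The class medians of the log2 fold change were -1.22 (no longer than 519 bases), -1.12 (to 933 bases), -0.41 (to 1389 bases), 0.43 (to 2064 bases) and 1.51 (longer). Of the 10 genes, 5 lay above the median of their class and 5 below. CYS3, with 1185 bases, lay 3.54 above its class median on the log2 scale, and 37 of the 1230 genes of the class had a higher log2 fold change. SAM1 and SAM2, which are in the same class with 1149 and 1155 bases, lay below it, at -1.99 and -1.61. CYS4 and MET3, with 1524 and 1536 bases, were at -2.36 and -1.03 from their class median, while MET2, with 1461 bases, was at 0.69 above it. MET6, with 2304 bases, was in the longest class and at -2.29 from its median, and 64 of 1226 genes of that class had a lower log2 fold change. MET10 was 0.17 above the same median. MET5 was 0.27 above it, but at -0.22 from a smooth trend with length in place of the classes. MET16, with 786 bases, was 0.76 above its class median. Across genes, coding length and log2 fold change had a Spearman's rho of 0.406 over the 10 genes and 0.472 over 6166 nuclear genes tested. Between log2 fold change and lysate level per kb it was -0.600 over the 10 genes. These correlations are across genes of the same libraries, and the lysate level enters both sides of the last one.

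**Figure D3:**
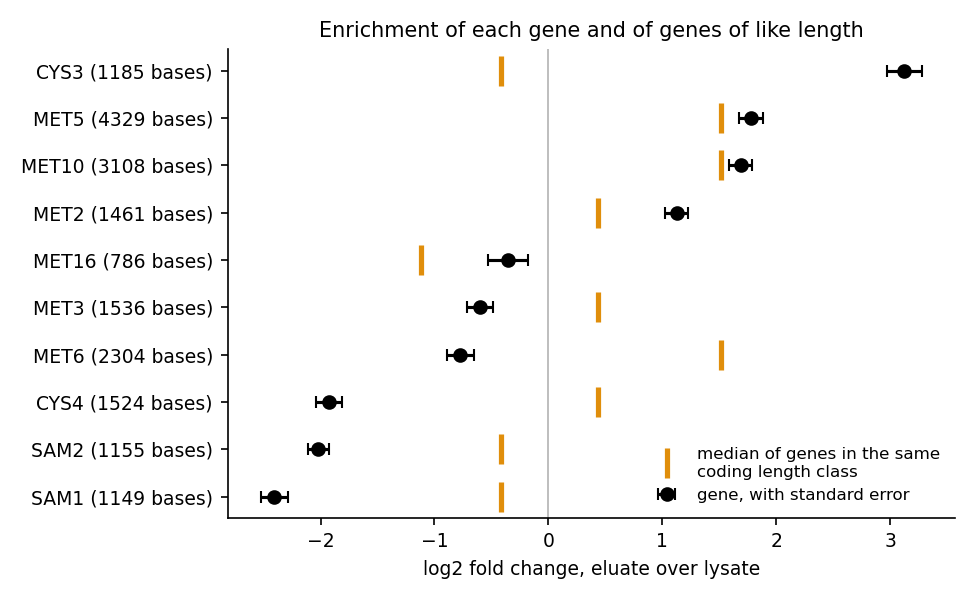
Log2 fold change of eluate over lysate for each gene (black, with its standard error) and the median of the nuclear genes tested in the same class of coding length (orange). CYS3 lies 3.54 above its class median, MET5 and MET10 lie near theirs (MET5 falls below a smooth trend with length), and CYS4, MET6, SAM1 and SAM2 lie at -2.36, -2.29, -1.99 and -1.61 from theirs.

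Genes that surround the 10 in sulfur metabolism were described from lists of 36 genes, of which 34 were tested. Their counts below are to be read against all genes tested, of which 44.2% were higher and 44.8% lower, and against the length classes. Of the other genes of sulfate assimilation, 4 of 5 were tested, 2 were higher and 2 lower in the eluate, and the median log2 fold change was 0.60. The highest was MET8, an enzyme of the siroheme cofactor that sulfite reductase needs, with 9.51 and 7.59 CPM in the eluates against 1.86 and 1.14 CPM in the lysates (log2 fold change 2.47, standard error 0.25, adjusted p = 1.75e-07 from edgeR). The lowest was MET14, the kinase that acts between Met3 and Met16, with 6.47 and 8.10 CPM in the eluates against 25.9 and 24.6 CPM in the lysates (log2 fold change -1.78, standard error 0.14, adjusted p = 1.14e-08). As in all genes tested, about as many of these genes were higher as lower. MET8 and MET14 are both in the length class with a median of -1.12. MET8 lay 3.58 above that median and MET14 at -0.67 from it.

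Of 6 genes for uptake of sulfate, methionine and SAM, 4 were higher and 2 lower, with a median of 1.30, beside 44.2% and 44.8% of all genes tested. All 6 were in the longer classes, with class medians of 0.43 and 1.51, and 4 of them lay above their class median. SUL2, a sulfate permease, had 196 CPM in both eluates against 30.7 and 25.9 CPM in the lysates (log2 fold change 2.79, standard error 0.10, adjusted p = 1.48e-12 from edgeR). MMP1, the S-methylmethionine permease, had 69.8 and 65.9 CPM in the eluates against 157 and 141 CPM in the lysates (log2 fold change -1.14, standard error 0.09, adjusted p = 1.32e-08). Of the regulators, 5 of 6 were tested, 3 were higher and 1 lower, with a median of 1.73, and without lysate 2 the number higher was 4. All 5 lay above their class median, also MET31, which was lower in the eluate, and MET32, which did not pass. MET4, the activator, had 580.4 and 588 CPM in the eluates against 108 and 104 CPM in the lysates (log2 fold change 2.46, standard error 0.10, adjusted p = 4.58e-12 from edgeR). MET31, one of its DNA-binding partners, had 19.4 and 20.9 CPM in the eluates against 25.8 and 23.5 CPM in the lysates (log2 fold change -0.29, standard error 0.12, adjusted p = 0.0310). It no longer passed with DESeq2 (adjusted p = 0.121), where 10 CPM in 2 libraries were required (0.0703), or without eluate 1 (0.175) or lysate 1 (0.175). MET28, the regulator not tested, had 2 and 6 counts in eluates 1 and 2 and 0 and 1 counts in lysates 1 and 2.

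Of 8 genes of the methyl cycle and of transsulfuration towards homocysteine, 1 was higher and 5 were lower, with a median of -0.69, beside 44.2% and 44.8% of all genes tested. The 8 genes were split evenly between the classes with medians of -0.41 and 0.43, and 7 lay below their class median. The gene that was higher was MET13, a methylenetetrahydrofolate reductase that helps to supply the methyl group for Met6, with 166 and 198 CPM in the eluates against 28.2 and 33.3 CPM in the lysates (log2 fold change 2.57, standard error 0.12, adjusted p = 1.13e-11 from edgeR). The lowest was ADO1, the adenosine kinase, with 93.3 and 89.4 CPM in the eluates against 666 and 532 CPM in the lysates (log2 fold change -2.72, standard error 0.12, adjusted p = 1.03e-11). Of 3 genes that make homoserine, the substrate of Met2, 1 was higher and 2 were lower. HOM3, the aspartate kinase, had 132 and 124 CPM in the eluates against 37.2 and 52.1 CPM in the lysates, and rose by 1.53 (standard error 0.13, adjusted p = 1.63e-08 from edgeR). HOM6, the homoserine dehydrogenase, had 26.6 and 27.8 CPM in the eluates against 770.2 and 717 CPM in the lysates, and fell by 4.77 (standard error 0.12, adjusted p = 2.97e-14). The first and last of these steps thus lay on opposite sides, as MET2 and MET6 did. HOM3 lay 1.10 above its class median of 0.43, and HOM6 lay at -4.36 from its class median of -0.41.

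**Figure D4:**
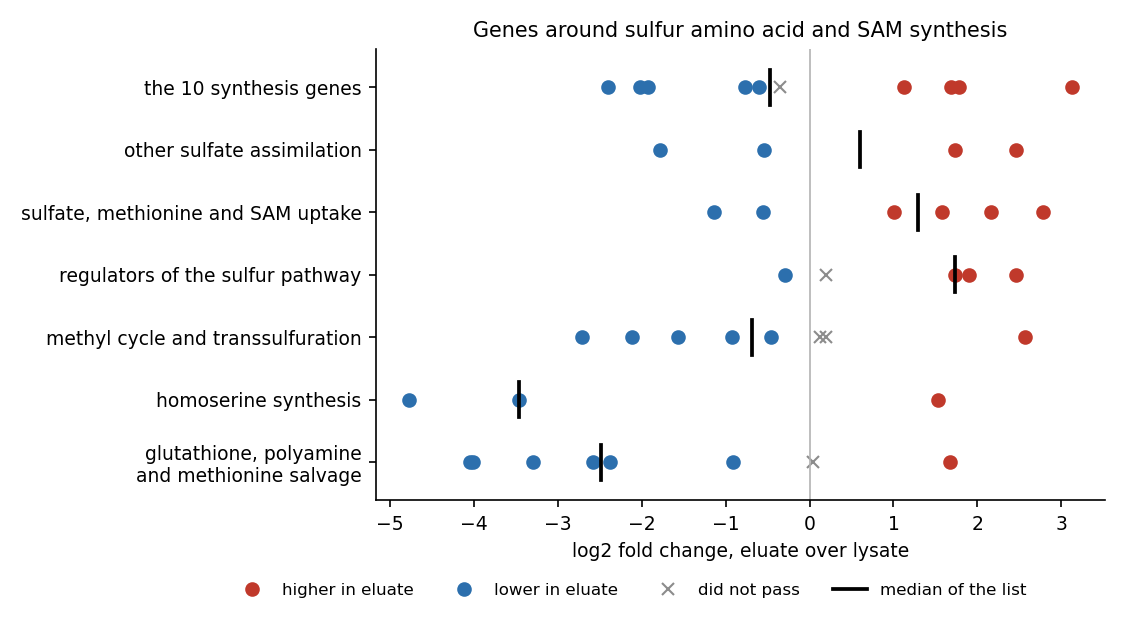
Log2 fold change of eluate over lysate of the 10 synthesis genes and of the tested genes of 6 lists around them, as 1 mark per gene: red higher and blue lower in the eluate by edgeR (adjusted p below 0.05), grey crosses did not pass, and a black line at the median of the list. The medians range from 1.73 for the regulators to -3.46 for homoserine synthesis, and every list holds genes on both sides of 0.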

How the data were processed

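Paired-end, strand-specific libraries of rRNA-depleted RNA from 2 eluates and 2 lysates, which the study calls biological replicates, were assigned to groups from the sample labels. The file of the authors holds whole-number counts per open reading frame, as deposited, and the submitters' processing notes name STAR 2.7.9a, featureCounts of Subread 2.0.3 and the build sacCer3. For the treatment of strand and of multiple hits in counting, the setting was not given in the sources used here. A deposited table of the authors' own comparison (DESeq2 1.38.3, fold changes and p-values) was not used. Symbols came from RefSeq R64.

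The counts went into edgeR 4.0.16 under R 4.3.3 (filterByExpr, TMM, glmQLFit, glmQLFTest, fraction as the only term), adjusted over all 6191 genes tested. The procedure was tested on simulated data in which only a small part of the genes changed. In the real data 89% of the genes tested passed, and scaling under so many changes was not tested. Standard errors of edgeR log2 fold changes were the size of the log2 fold change divided by the root of its F statistic. Those of the log2 ratios of gene pairs came only from the variances between the 2 libraries of each fraction. Ratios, shares and exact tests used scipy 1.17.1, and the smooth trend was a lowess fit (statsmodels 0.14.6, fraction 0.3). The genes and lists were chosen with earlier results of these data known. Named were the 10 genes, MET17, and the highest and lowest tested gene of each list. The ratios of MET3, MET2 and CYS3 pairs, and the naming of MET28 and MET32, were added after the values were seen. Sequences were not used here.

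Alternatives covered normalization (RLE factors, library totals), low-count filters, DESeq2 1.42.0, limma-voom (limma 3.58.1), a replicate block and leaving out each library.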

Additional observations from a re-analysis of the deposited data

How the results depend on the processing

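Over the other settings and with each library left out, 4 genes stayed higher and 5 lower throughout, and MET16 alone changed its side of the threshold (both cases are given with its values). With library totals alone, the median of all genes shifted by -0.18 and that of the 10 genes was -0.65. With 1 library left out, the median of the 10 genes ranged from -0.59 to -0.35. The cause was not tested. Deviations of same-numbered libraries had r = -0.043 across 6191 genes, so that no sign of pairing was seen. The labels do not say whether same-numbered libraries came from the same culture. With the replicate block the counts were again 4 higher and 5 lower, with a median of -0.47. With 1 library left out, the log2 difference of MET5 over MET10 ranged from -0.016 to 0.204, that of SAM1 over SAM2 from -0.556 to -0.245 and that of CYS3 over CYS4 from 4.71 to 5.44. The difference in the share of counts, eluates minus lysates, was -0.114 percentage points with nuclear protein-coding genes as the denominator, beside -0.108 over all counts. It was -0.00237 without CYS4, -0.0544 without SAM1, -0.0663 without MET6, -0.0887 without SAM2 and -0.107 without MET3. It was -0.111 without MET2, -0.138 without CYS3, -0.146 without MET10 and -0.152 without MET5. The leaving out of single genes was chosen after seeing the data. The difference thus shrank most without CYS4, but it is a net of genes that went both ways. Against the smooth trend with length, MET5 lay at -0.22 and MET10 at 0.04, beside 0.27 and 0.17 against their class median. MET3, MET6 and CYS4 lay at -0.80, -1.91 and -2.10 from the trend and MET2 at 1.05. These values differed in size from those against the classes, but of the 10 genes MET5 alone changed sign. Of the lists, the count of regulators that were lower went to 0 in the settings given for MET31, and that of methyl cycle genes that were higher went to 2 with at least 10 CPM in 2 libraries and without eluate 1. MET8 and MET16 did not reach 10 CPM in 2 libraries and have no value there.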

Other observations

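Genes that use or recycle products of the pathway lay on both sides. Of 8 genes of glutathione, polyamine and methionine salvage, 6 were lower and 1 higher, with a median log2 fold change of -2.48, beside 44.8% lower and 44.2% higher of all genes tested. Of the 8, 6 were in the shorter length classes with negative medians, and 3 lay above and 5 below the median of their class. Measured from the class medians, the median of the list was -2.49. GSH1, which encodes the first enzyme of glutathione synthesis and thus draws on cysteine, had 384 and 414 CPM in the eluates against 103 and 148 CPM in the lysates, and rose by 1.67 (standard error 0.14, edgeR adjusted p = 1.68e-08). UTR4, an enzyme of methionine salvage, had 6.05 and 5.40 CPM in the eluates against 103 and 86.1 CPM in the lysates, and fell by 4.05 (standard error 0.13, adjusted p = 3.06e-13 from edgeR). GSH1 has a coding length of 2037 bases and UTR4 one of 684 bases, and the median log2 fold changes of their length classes were 0.43 and -1.12. GSH1 lay 1.24 above its class median and UTR4 at -2.93 from its own.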
